A study of Penicillium oxalicum with 9 samples.

Results

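Sequence-specific transcription factors are proteins that bind short DNA motifs and set how often nearby genes are copied into RNA. In filamentous fungi most of them belong to the zinc cluster family, named for the Gal4-type domain in which cysteines hold zinc ions, and smaller groups carry basic leucine zipper, GATA-type or other DNA-binding domains. Zinc cluster proteins are known in fungi for controlling the use of sugars and plant polymers, nitrogen sources and the gene clusters that make secondary metabolites. Many fungal gene clusters hold a regulator of their own, whose transcript is often made together with those of its targets.

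The factor genes described here are the 203 of 9786 genes in the deposited Penicillium oxalicum table whose Gene Ontology function entry contains the words transcription factor activity. The words occur in 207 genes, of which 4 were set aside by name as separately described regulators. A further 5 genes named for exclusion did not carry the words, and the exclusion by KEGG Orthology entry (general initiation factors, kinases, translation) removed 0 genes. Penicillium oxalicum is a filamentous fungus that secretes enzymes degrading plant cell walls.

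RNA sequencing was carried out on mycelia of 3 strains, with 3 biological replicates each. The sample titles name the strains dPoflbC, dPoClrC and dCA, where the d is read here as a deletion of PoflbC, PoClrC or CA. All 9 cultures shared Vogel's medium, 30 °C and shaking at 200 rpm, with 22 h on 2% glucose, 2 h without a carbon source and 4 h on 2% cellulose. A strain stated to carry no deletion is not analysed here, so a difference does not show which of the strains had moved. The sources used here do not give the parent strain, the number of transformants behind each strain or the meaning of CA.

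Libraries held 6.49 to 7.76 M reads (M, 1e+06) in genes, and a count of 0 allowed 0.387 to 0.462 reads per M (counting error only). RPKM, the level deposited by the authors, is the read count per kilobase of coding sequence and per M reads of that library, and is given in the order of replicates 1, 2 and 3 where a strain has 3 values. Log2 fold changes are from edgeR's quasi-likelihood test on the read counts after TMM scaling, which corrects for the share of reads taken by the most abundant transcripts. The TMM factors ranged from 1.20 to 1.24 (dPoflbC), from 0.988 to 1.03 (dPoClrC) and from 0.680 in replicate 2 to 0.906 (dCA), so a log2 fold change differs from the ratio of RPKM means. The words rose and fell mark genes for which the Benjamini-Hochberg adjusted p over all 8681 genes tested was under 0.05 and the log2 fold change was at least 1 in size. In all such factor genes the scaled levels of the 3 libraries of one strain lay wholly above those of the other, as did those of 98.6% of all called genes in dPoflbC against dCA, 98.4% in dPoClrC against dCA and 99.0% in dPoflbC against dPoClrC. Among the dCA libraries, replicate 2 was set off on the second principal component of the factor genes (7.01, against 1.29 and 2.60 in the other replicates), and its 10 most abundant genes held 15.7% of its reads. In these cultures fewer cells with a transcript and less transcript per cell cannot be told apart.

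The annotation does not name the deleted genes. PDE_08372, a gene without a named function, had 0 reads in all 3 dPoflbC libraries and was at 32.4 ± 6.72 RPKM (dPoClrC) and 20.6 ± 5.63 RPKM (dCA; SD, n = 3 here and throughout). PDE_09023 had 0 reads in all 3 dPoClrC libraries and was at 83.3 ± 15.2 RPKM (dPoflbC) and 128 ± 29.0 RPKM (dCA). Both are outside the 203 factor genes. Among genes of asexual development, the Myb-like FlbD (PDE_03008) and 2 genes annotated as the spore regulator BrlA (PDE_00087 and PDE_00079) summed to 286 to 301 RPKM in dPoflbC, 57.3 to 71.8 RPKM in dPoClrC and 52.3 to 64.5 RPKM in dCA. PDE_00079 was at 1.27 RPKM or less on average in every strain. FlbD made up most of these sums, at 218 ± 9.51, 49.9 ± 4.87 and 53.1 ± 4.05 RPKM in dPoflbC, dPoClrC and dCA. The BrlA gene PDE_00087 was at 75.1 ± 6.31, 13.3 ± 2.22 and 3.66 ± 1.97 RPKM and was also called higher in dPoClrC than in dCA. The part of conidiating cells in the results on dPoflbC and dPoClrC was not tested.

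All 203 factor genes are described in the table only as hypothetical proteins. A KEGG entry is given for 17, of which 12 name a transcription factor and 5 name another protein, such as a proteasome subunit (PDE_03903) or an ammonium transporter (PDE_07942). By their other Gene Ontology terms, 161 belong to the zinc cluster class (87 with and 74 without the additional process term for DNA-templated transcription), and 27 have a term for sequence-specific DNA binding without zinc. A further 5 have GATA-type terms, 3 a copper term, 2 another zinc or metal term, and 5 no further binding term. Reads were too few for a test in 5 factor genes (PDE_04501, PDE_05741, PDE_05870, PDE_05274 and PDE_03898), which had at most 14 reads over the 3 libraries of any strain. The tests below concern the other 198, a set that the filter on low counts shaped.

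Factor genes had fewer members at high levels than all genes, and fewer that were nearly silent. Their median level over the 9 libraries was 18.7 RPKM, compared with 26.5 RPKM for all genes. Only 10 of 203 (4.93%) reached 100 RPKM, against 18.2% of all genes, while 147 lay between 10 and 100 RPKM, 41 between 1 and 10 RPKM and 5 below 1 RPKM (2.46%, against 8.60% of all genes). The lower quartile was 10.7 RPKM, above the 8.29 RPKM of all genes, and the upper quartile 35.4 RPKM, below their 69.8 RPKM. Their median coding length was 2040 bases (range 429 to 4161), against 1141.5 bases for all genes. Together they held between 1.18% and 1.46% of the reads of a library, highest in the 3 dCA libraries.

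The highest level was that of PDE_07722, a DNA-binding protein without zinc terms. It was at 912, 733 and 791 RPKM (dPoflbC), 320, 331 and 316 RPKM (dPoClrC) and 1009, 1294 and 1063 RPKM (dCA). The 3 strains did not overlap, and dPoClrC was the lowest. Next came PDE_08488, of the same class, at 523 ± 0.562 RPKM in dPoflbC, 739 ± 108 RPKM in dPoClrC and 799 ± 107 RPKM in dCA. The zinc cluster genes PDE_05453, PDE_06635 and PDE_04982 and the SOK2-like PDE_04095 completed the 6 most abundant. PDE_05453 was at 158 ± 11.5, 505 ± 49.8 and 423 ± 115 RPKM in dPoflbC, dPoClrC and dCA, so that the dPoflbC libraries were the lowest. PDE_04982 was at 256 ± 28.5, 122 ± 26.4 and 233 ± 32.7 RPKM in the same order, so that the dPoClrC libraries were the lowest.

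Against dCA, more factor genes were lower than higher in both of the other strains. In dPoflbC 32 of the 198 fell (16.2%) and 7 rose (3.54%), where 15.8% of all genes tested fell and 11.4% rose. The share that fell was thus near that of all genes, while the share that rose was below it. In dPoClrC 27 fell (13.6%) and 2 rose (1.01%), where 7.35% of all genes fell and 5.69% rose. The median log2 fold change of the factor genes was -0.30 in dPoflbC and -0.22 in dPoClrC, and that of all genes -0.07 and 0.00. Values below 0 were found for 144 factor genes (72.7%) in dPoflbC against dCA, compared with 53.7% of all genes, and for 138 (69.7%) in dPoClrC against dCA, compared with 49.8%. These 2 comparisons share the dCA libraries.

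Between dPoflbC and dPoClrC the picture was closer to even. Of the 198, 13 were higher in dPoflbC (6.57%) and 16 lower (8.08%), where 9.05% of all genes were higher and 13.6% lower. The median was -0.08 for factor genes and 0.01 for all genes. Over the 3 comparisons 54 factor genes were called at least once (27.3%, against 35.9% of all genes) and 144 never.

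**Figure D1:**
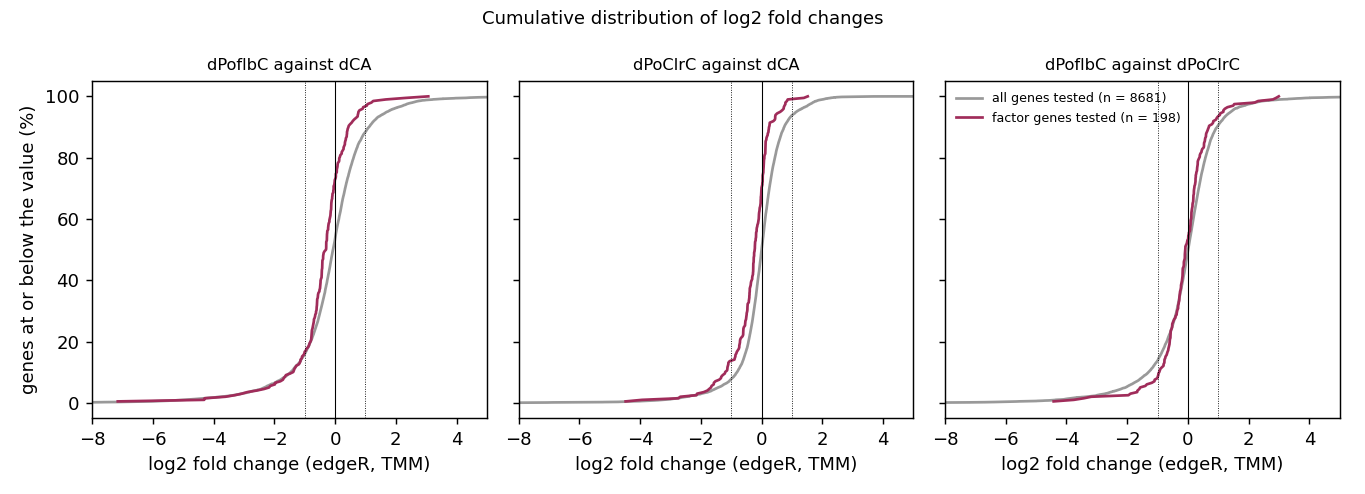
Cumulative share of genes (y axis, percent) at or below a log2 fold change (x axis, edgeR after TMM scaling) for the 198 factor genes tested (purple) and all 8681 genes tested (grey) in each comparison. Dotted lines mark the fold change of 1 needed for a call. The purple line lies left of the grey line over most of its range in the panels against dCA, with medians of -0.30 and -0.22, and the lines run closer together in the third panel.

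The scale matters for these counts. With no scaling beyond library size, the median of all genes moved to 0.51, 0.30 and 0.29 in dPoflbC against dCA, dPoClrC against dCA and dPoflbC against dPoClrC, and that of factor genes to 0.27, 0.08 and 0.19. The counts then became 21 higher and 17 lower, 7 higher and 17 lower, and 19 higher and 12 lower. Lower calls made up 82.1%, 93.1% and 55.2% of called factor genes with scaling (58.1%, 56.4% and 60.0% of all called genes) and 44.7%, 70.8% and 38.7% without (24.99%, 33.9% and 40.5% of all called genes). The distance from the median of factor genes to that of all genes was -0.23, -0.22 and -0.09 with scaling and -0.24, -0.23 and -0.09 without. Directions of factor genes that were not called are therefore not read singly, since 78 of 159, 57 of 169 and 37 of 169 changed sign. No call reversed under any of the 20 alternatives.

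By class, 79.8% of the factor genes tested (158) are zinc cluster genes. Of these, dPoflbC had 28 lower (17.7%) and 2 higher (1.27%) than dCA, where 15.8% of all genes fell and 11.4% rose. In dPoClrC 25 were lower (15.8%) and 1 higher (0.633%), where 7.35% and 5.69% of all genes were. Of the 25 tested with sequence-specific DNA binding and no zinc term, 4 were higher and 3 lower in dPoflbC than in dCA, and 0 higher and 2 lower in dPoClrC. Compared with dPoClrC, dPoflbC had 10 zinc cluster genes higher (6.33%) and 15 lower (9.49%). Both shares were below those of all genes, of which 9.05% were higher and 13.6% lower. In the class without zinc 3 of the 25 were higher and 0 lower, and no difference between classes is read from so few genes. No gene of the GATA-type, copper or other metal classes (10 in all classes together) was called in any comparison by edgeR or DESeq2. Among all genes 27.1%, 13.0% and 22.6% were called in dPoflbC against dCA, dPoClrC against dCA and dPoflbC against dPoClrC, so a count of 0 among 10 is not read as a difference. Unadjusted p was under 0.05 for 7, 4 and 7 of them in the same order, and limma called 1, 0 and 0. With no scaling the zinc cluster counts were 13 higher and 15 lower in dPoflbC against dCA and 4 higher and 15 lower in dPoClrC against dCA. Under that setting 26.2% of all genes were higher and 8.72% lower in the first comparison, and 10.2% and 5.23% in the second.

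**Figure D2:**
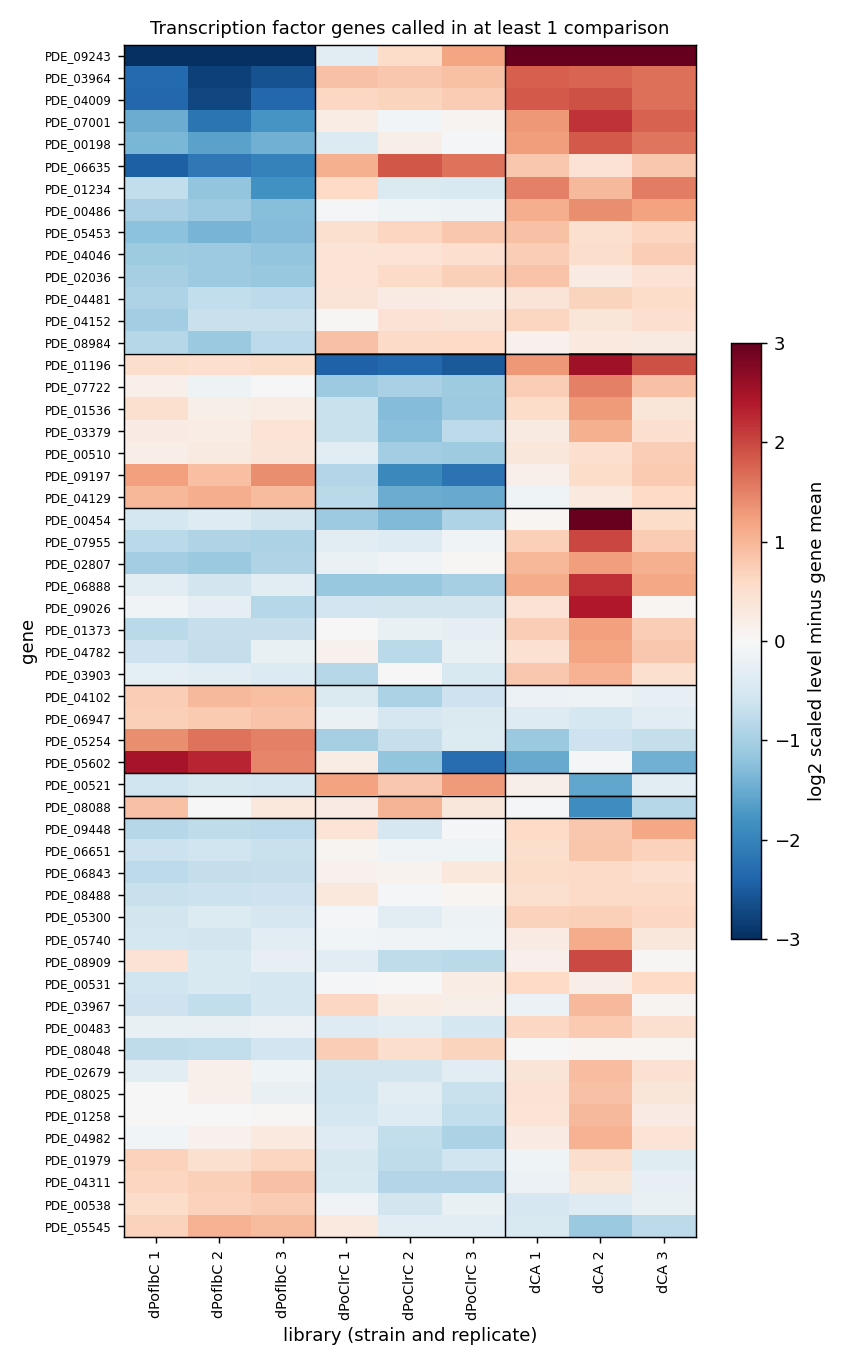
Levels of the 54 factor genes called in at least 1 comparison (y axis) in each of the 9 libraries (x axis, by strain and replicate). Colour is the log2 of RPKM divided by the TMM factor, plus 0.1, minus the mean of that gene, with the scale ending at -3 and 3. Blocks from the top hold genes lower in dPoflbC than in both other strains (14), then lower in dPoClrC (7), higher in dCA, higher in dPoflbC (4), higher in dPoClrC (1), lower in dCA (1) and the rest, each gene in the first block it belongs to.

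Among the factor genes lower in dPoflbC than in dCA, the zinc cluster gene PDE_09243 differed most. Its Gene Ontology entry includes aflatoxin biosynthesis, a secondary metabolite pathway. It was at 1.40, 0.509 and 1.23 RPKM (dPoflbC), 9.85, 17.7 and 28.0 RPKM (dPoClrC) and 123, 70.4 and 112 RPKM (dCA). All 3 strains were separate, with dPoflbC lowest and dCA highest. The log2 fold change was -7.16 (SE 0.44, edgeR adjusted p = 6.58e-07) in dPoflbC against dCA and -2.74 (SE 0.31, edgeR adjusted p = 0.000183) in dPoClrC against dCA. Between dPoflbC and dPoClrC it was -4.42 (SE 0.46, edgeR adjusted p = 2.48e-05).

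The zinc cluster gene PDE_03964 was at 18.6, 13.1 and 14.7 RPKM (dPoflbC), 143, 130 and 139 RPKM (dPoClrC) and 238, 171 and 207 RPKM (dCA). The dPoflbC libraries were far below the other 6. On the log2 scale the difference was -4.31 (SE 0.14, edgeR adjusted p = 3.81e-08) against dCA and -3.43 (SE 0.14, edgeR adjusted p = 1.19e-07) against dPoClrC. In dPoClrC against dCA it was -0.88, short of the fold change needed for a call.

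A closely similar order was seen for the zinc cluster gene PDE_04009. It was at 11.5, 8.67 and 11.1 RPKM (dPoflbC), 75.9, 75.8 and 81.8 RPKM (dPoClrC) and 156, 123 and 131 RPKM (dCA). No strain overlapped another. Its log2 fold change was -4.30 (SE 0.14, edgeR adjusted p = 3.81e-08) in dPoflbC against dCA, -3.18 (SE 0.13, edgeR adjusted p = 1.27e-07) in dPoflbC against dPoClrC and -1.12 (SE 0.12, edgeR adjusted p = 0.00014) in dPoClrC against dCA. The last of these fell to -0.81 with no scaling and was then not called.

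PDE_06635, the shortest factor gene at 429 bases and one of the most abundant, was at 33.4, 40.0 and 42.9 RPKM in dPoflbC. The values were 317, 523 and 454 RPKM (dPoClrC) and 232, 134 and 220 RPKM (dCA). Here dPoClrC, not dCA, was the highest. This was a log2 fold change of -2.89 (SE 0.21, edgeR adjusted p = 2.25e-06) in dPoflbC against dCA and -3.76 (SE 0.22, edgeR adjusted p = 6.31e-07) in dPoflbC against dPoClrC.

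Another pair of zinc cluster genes was ordered dPoflbC, dPoClrC, dCA from low to high. PDE_07001 was at 6.52 ± 1.64, 19.95 ± 2.58 and 51.9 ± 8.74 RPKM in that order, with log2 fold changes of -3.61 and -1.72 against dCA. PDE_00198 was at 14.3 ± 1.30, 31.1 ± 5.80 and 79.0 ± 7.61 RPKM, with -3.06 and -1.66. Both were called in all 3 comparisons.

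Of the 7 factor genes higher in dPoflbC than in dCA, 2 are zinc cluster genes, 4 bind specific sequences without a zinc term, and 1, PDE_08088, has no further binding term. The highest fold change was that of PDE_05602, without a zinc term, which was at 29.4, 25.5 and 14.1 RPKM (dPoflbC), 5.07, 1.76 and 0.786 RPKM (dPoClrC) and 1.26, 2.77 and 1.28 RPKM (dCA). The dPoflbC libraries lay above the other 6, which overlapped among themselves. The log2 fold change was 3.07 (SE 0.54, edgeR adjusted p = 0.000677) against dCA and 2.91 (SE 0.51, edgeR adjusted p = 0.000784) against dPoClrC.

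PDE_05254 was at 52.7, 61.1 and 54.8 RPKM (dPoflbC), 8.27, 9.81 and 12.1 RPKM (dPoClrC) and 6.71, 7.09 and 8.42 RPKM (dCA). Again only the dPoflbC libraries were set apart. On the log2 scale the difference was 2.33 (SE 0.17, edgeR adjusted p = 1.92e-06) against dCA and 2.20 (SE 0.16, edgeR adjusted p = 2.75e-06) against dPoClrC. PDE_05545 was at 21.8, 27.2 and 25 RPKM (dPoflbC), 13.6, 8.57 and 8.72 RPKM (dPoClrC) and 7.05, 3.37 and 5.41 RPKM (dCA). It rose by 1.67 (SE 0.21, edgeR adjusted p = 7.62e-05) on the log2 scale against dCA, and its value of 0.99 against dPoClrC was just short of a call.

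The zinc cluster genes PDE_04102 (45.1 ± 3.29 RPKM in dPoflbC, 13.0 ± 2.53 in dPoClrC, 14.4 ± 2.00 in dCA) and PDE_06947 (26.8 ± 0.902, 9.86 ± 1.37 and 7.87 ± 1.62 RPKM) were higher in dPoflbC than in both other strains. PDE_00538, without a zinc term, was at 28.5 ± 1.51, 12.2 ± 2.09 and 9.25 ± 1.64 RPKM. Its log2 fold change of 1.04 against dCA was close to the limit and fell to 0.97 without dCA replicate 1.

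**Figure D3:**
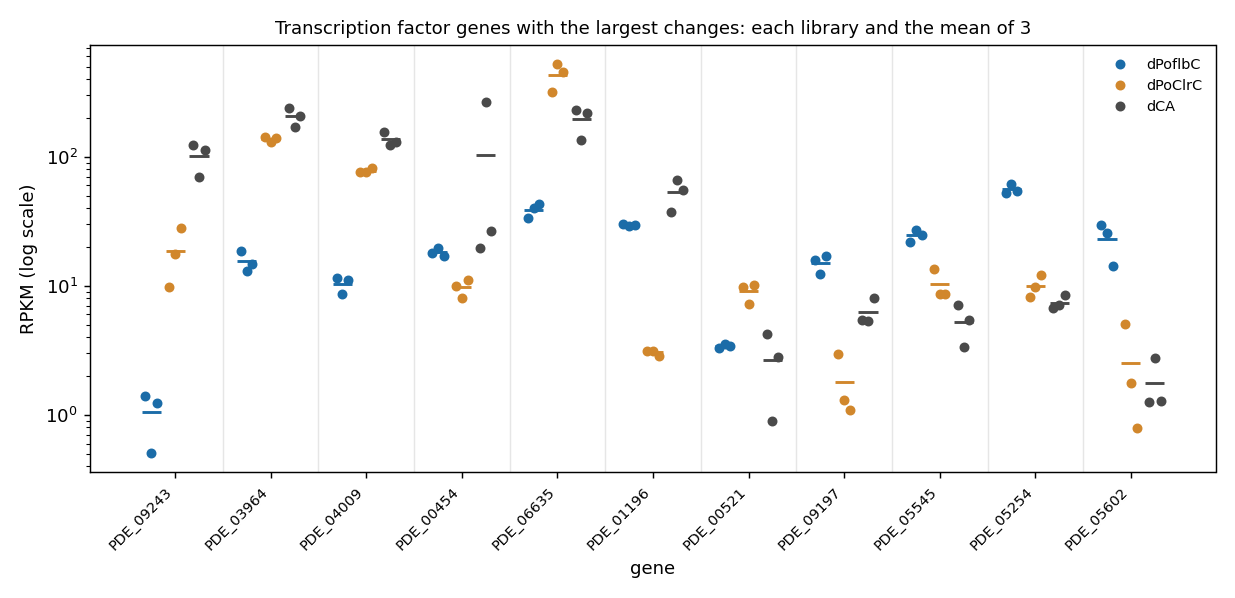
RPKM (y axis, log scale) of the 11 factor genes with the 3 highest or 3 lowest fold changes of a comparison, in order of the log2 fold change in dPoflbC against dCA. Points are single libraries and bars are means of 3. PDE_09243, PDE_03964 and PDE_04009 are lowest in dPoflbC, PDE_01196 and PDE_09197 are lowest in dPoClrC, and for PDE_00454 a single dCA library, at 266 RPKM, lies far above the rest.

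In dPoClrC the zinc cluster gene PDE_01196 differed most from both other strains. It was at 3.14, 3.15 and 2.86 RPKM (dPoClrC), 30.0, 29.0 and 29.4 RPKM (dPoflbC) and 37.4, 66.4 and 55.3 RPKM (dCA). All 3 strains were separate. Its log2 fold change was -4.47 (SE 0.30, edgeR adjusted p = 8.78e-06) in dPoClrC against dCA and 2.99 (SE 0.29, edgeR adjusted p = 1.62e-05) in dPoflbC against dPoClrC. In dPoflbC against dCA it was -1.48 (SE 0.24, edgeR adjusted p = 0.000432), a call that ended at -0.85 with no scaling.

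PDE_09197, also of the zinc cluster class, was at 2.96, 1.31 and 1.09 RPKM (dPoClrC), 15.8, 12.4 and 17.0 RPKM (dPoflbC) and 5.40, 5.32 and 8.01 RPKM (dCA). The order was thus dPoClrC, dCA, dPoflbC, with no overlap. This was a log2 fold change of -2.12 (SE 0.32, edgeR adjusted p = 0.00101) in dPoClrC against dCA and 2.80 (SE 0.31, edgeR adjusted p = 3.99e-05) in dPoflbC against dPoClrC. PDE_04129 had the same order at lower levels, with 1.59 ± 0.526 RPKM in dPoClrC, 3.81 ± 1.07 in dCA and 9.58 ± 0.644 in dPoflbC. The abundant PDE_07722 fell by 2.14 on the log2 scale in dPoClrC against dCA (SE 0.21, edgeR adjusted p = 7.59e-05). It also fell by 1.09 in dPoflbC against dCA, a call that ended at -0.47 with no scaling and at -0.79 without dCA replicate 2.

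The zinc cluster gene PDE_00521 rose in dPoClrC. It was at 9.87, 7.19 and 10.1 RPKM (dPoClrC), 3.33, 3.57 and 3.40 RPKM (dPoflbC) and 4.21, 0.899 and 2.82 RPKM (dCA). Only the dPoClrC libraries stood above the rest. The log2 fold change was 1.52 (SE 0.31, edgeR adjusted p = 0.00441) in dPoClrC against dCA and -1.67 (SE 0.30, edgeR adjusted p = 0.000955) in dPoflbC against dPoClrC. The other of the 2 that rose in dPoClrC against dCA was PDE_08088, at 2.07 ± 0.634 RPKM in dPoClrC and 0.657 ± 0.481 RPKM in dCA, a call lost under 11 of the 20 alternatives. These include the replicate block and leaving out replicate 2 or 3 of dPoClrC, replicate 2 or 3 of dCA, or dPoflbC replicate 3.

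PDE_00454, without a zinc term, was called lower in both other strains than in dCA, where 1 library was far above the rest. It was at 17.9, 19.6 and 17.0 RPKM (dPoflbC), 9.98, 8.12 and 11.1 RPKM (dPoClrC) and 19.8, 266 and 26.5 RPKM (dCA). The high value is that of dCA replicate 2. On the log2 scale the difference was -3.31 (SE 0.92, edgeR adjusted p = 0.0104) in dPoflbC and -3.93 (SE 0.96, edgeR adjusted p = 0.0105) in dPoClrC. Without that library these were -0.79, which was not called, and -1.43, which still was. PDE_06888, a zinc cluster gene at 11.4 ± 1.05 RPKM in dPoflbC, 5.80 ± 0.341 in dPoClrC and 28.9 ± 8.14 in dCA, fell in both strains against dCA by 1.98 and 2.68 on the log2 scale.

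A strain was counted as standing apart in a gene called in the same direction against both others. The strain dPoflbC stood apart with lower levels in 14 factor genes (7.07%, against 9.43% of all genes) and with higher levels in 4 (2.02%, against 5.66%). For dPoClrC the counts were 7 lower (3.54%, against 2.06%) and 1 higher (0.505%, against 2.21%). For dCA they were 16 higher (8.08%, against 4.65%) and 1 lower (0.505%, against 2.89%). Of the 16 higher in dCA, 6 (PDE_00198, PDE_00486, PDE_01234, PDE_04009, PDE_07001 and PDE_09243) were also among the 14 lower in dPoflbC. In dPoflbC against dPoClrC the calls of PDE_00486 (-1.01) and PDE_01234 (-1.19) were lost under 12 and 8 of the 20 alternatives. That of PDE_04009 in dPoClrC against dCA was lost under 5. Every call of PDE_07001 and PDE_09243 was kept under each alternative. Without dCA replicate 2, the number of factor genes in which dCA stood apart in either direction dropped from 17 to 9. This number was not taken over all genes without that library, so the drop is not read as particular to factor genes. In dPoflbC against dCA the counts of factor genes were then 26 lower (13.1%, against 14.5% of all genes) and 6 higher (3.03%, against 11.1%). In dPoClrC against dCA they were 17 lower (8.59%, against 5.79%) and 1 higher (0.505%, against 4.75%), so that the share that fell was nearer to that of all genes.

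Genes next to a called factor gene by locus number were compared next, a description chosen after the values were seen. The sources used here give no gene positions, so a difference of 1 in the locus number stands only for adjacent numbering. In dPoflbC against dCA, 24 of the 39 called factor genes (61.5%) had an adjacent locus number called in the same direction, compared with 46.2% of all called genes. The shares were 15 of 29 (51.7%) and 38.8% in dPoClrC against dCA, and 14 of 29 (48.3%) and 42.0% in dPoflbC against dPoClrC. These shares were not tested against each other and were not matched for direction. Lower calls made up 82.1%, 93.1% and 55.2% of called factor genes in the same order, against 58.1%, 56.4% and 60.0% of all called genes. The part of this difference in direction in the shares was not tested. Strand of the reads is not stated, so reads of overlapping neighbours cannot be told apart.

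Around PDE_09243 the neighbouring numbers fell with it. PDE_09242, annotated with methyltransferase activity, was at 0.880, 0.555 and 0.457 RPKM (dPoflbC), 49.8, 141 and 204 RPKM (dPoClrC) and 333, 111 and 199 RPKM (dCA). PDE_09244 was at 1.42, 1.46 and 1.48 RPKM (dPoflbC), 40.2, 57.6 and 81.6 RPKM (dPoClrC) and 284, 161 and 256 RPKM (dCA). Both were almost silent in dPoflbC, and PDE_09244 also separated dPoClrC from dCA. Their log2 fold changes in dPoflbC against dCA were -8.89 and -7.87. PDE_09240 and PDE_09241 fell too, and had 2 reads and 1 read over the dPoflbC libraries.

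The locus number of the putative alpha-glucosidase PDE_03966, an enzyme that releases glucose from alpha-linked sugars, is 2 above that of PDE_03964. PDE_03966 was at 3.74, 3.84 and 5.47 RPKM (dPoflbC), 179, 140 and 181 RPKM (dPoClrC) and 332, 144 and 361 RPKM (dCA). It fell by 6.53 on the log2 scale in dPoflbC against dCA, and PDE_03967, a factor gene itself, by 1.00, at the limit of a call that ended at -0.56 without dCA replicate 2. PDE_04152 (10.1 ± 1.35, 17.9 ± 2.23 and 17.0 ± 4.03 RPKM in dPoflbC, dPoClrC and dCA) was chosen here after its values were seen. It fell by 1.31 in dPoflbC against dCA, or by 0.74 and not called with no scaling. Beside it the glucan 1,6-alpha-glucosidase PDE_04151 fell by 3.98 and the alpha-glucoside transporter PDE_04150 by 3.44.

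Another 2 factor genes with an enzyme gene close by in number were picked after their values were seen, so no count stands behind them. PDE_04481 (52.4 ± 3.02 RPKM in dPoflbC, 93.0 ± 7.81 in dPoClrC, 89.5 ± 7.43 in dCA) is 3 numbers from the xylanase PDE_04478, which fell by 8.10 in dPoflbC against dCA. PDE_06651 (14.5 ± 0.583, 18.0 ± 1.76 and 24.3 ± 1.72 RPKM) is 2 numbers from the feruloyl esterase PDE_06649, which fell by 6.70. The log2 fold changes of these factor genes were -1.36 and -1.34, and -0.77 and -0.75, without a call, with no scaling.

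**Figure D4:**
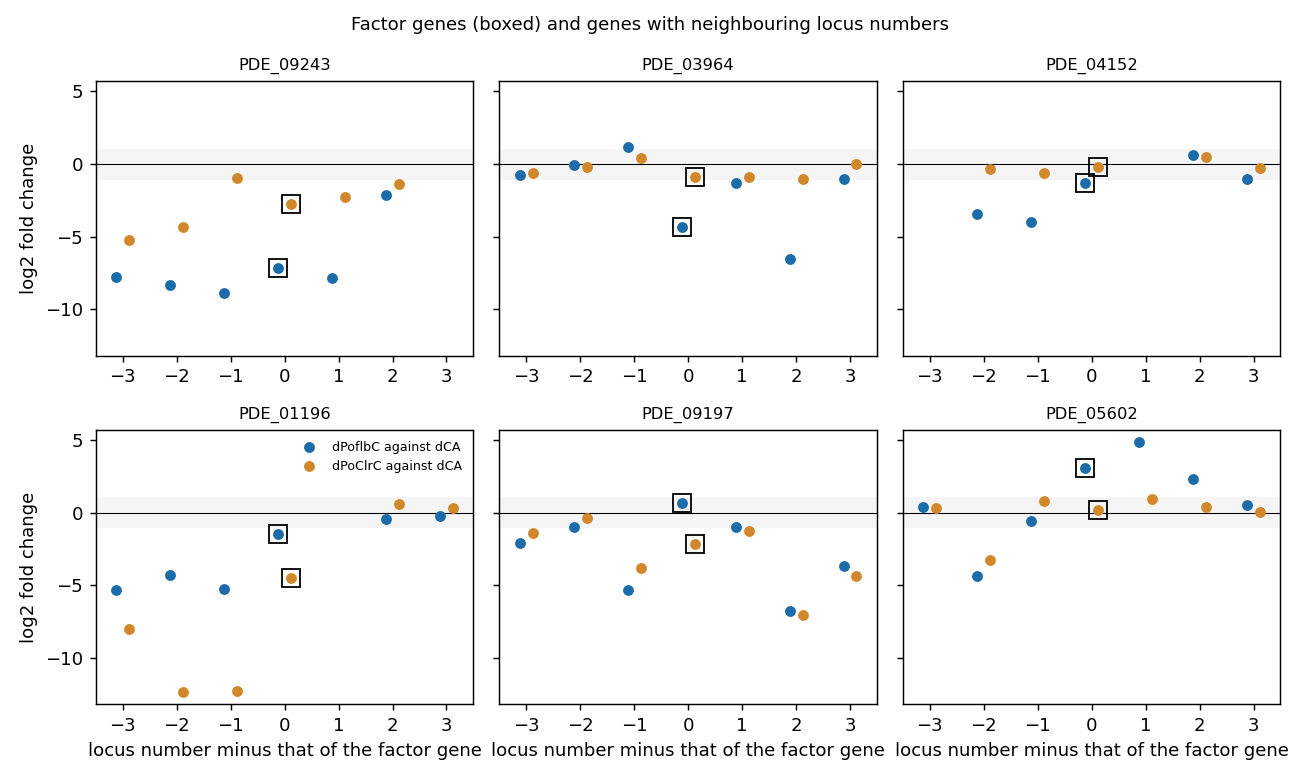
Log2 fold changes (y axis) of 6 factor genes (boxed) and of genes up to 3 locus numbers away (x axis), in dPoflbC against dCA (blue) and dPoClrC against dCA (orange). The grey band spans -1 to 1, and untested genes have no point. The 4 genes at numbers PDE_09240 to PDE_09242 and PDE_09244 lie near PDE_09243, at -7.80 to -8.89 in blue, while around PDE_09197 4 of 6 neighbours fell in blue and the factor gene did not.

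In dPoClrC, PDE_01196 had neighbours that fell with it. The glutathione S-transferase PDE_01194 was at 4.99, 4.18 and 6.10 RPKM (dPoClrC) and 2132, 2378 and 476 RPKM (dPoflbC). In dCA it reached 1667 and 2537 RPKM in replicates 1 and 3 and 50040 RPKM in replicate 2. Its log2 fold change in dPoClrC against dCA was -12.33, and -8.86 without dCA replicate 2. In dPoflbC against dCA the values were -4.27 and -0.79, the latter not called.

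PDE_09197 did not move as its neighbours did in dPoflbC. The cytochrome P450 PDE_09199 was at 0.698, 0.577 and 0.453 RPKM (dPoflbC), 0.380, 0.366 and 0.460 RPKM (dPoClrC) and 53.7, 18.2 and 63.9 RPKM (dCA). The O-methyltransferase PDE_09196 fell by 5.35 in dPoflbC and by 3.84 in dPoClrC against dCA. PDE_09197 itself had a log2 fold change of 0.68 in dPoflbC against dCA, without a call, and -2.12 in dPoClrC against dCA. The adjacent hybrid polyketide and peptide synthase PDE_09198, the type of enzyme that builds a metabolite backbone, fell by 1.28 in dPoClrC against dCA.

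Next to PDE_05602, which rose in dPoflbC, the p38-type MAP kinase PDE_05603 was at 53.3, 42.4 and 18.4 RPKM (dPoflbC), 2.46, 1.87 and 2.01 RPKM (dPoClrC) and 0.941, 0.944 and 0.700 RPKM (dCA). As for the factor gene, the dPoflbC libraries were set apart and replicate 3 was the lowest of them. Its log2 fold change was 4.86 against dCA and 3.88 against dPoClrC. PDE_07955, a zinc cluster gene chosen after its values were seen, was highest in dCA replicate 2 (35.6, 66.0 and 35.1 RPKM in dCA). Its neighbour, the salicylate hydroxylase PDE_07956, was at 101, 684 and 97.6 RPKM in the same libraries.

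Of the 12 factor genes whose KEGG entry names a known type of factor, none was called by edgeR or DESeq2, since all were short of the fold change. Of all genes 27.1%, 13.0% and 22.6% were called in the 3 comparisons, so nothing is read from 0 among 12. Adjusted p alone was under 0.05 for 9 in dPoflbC against dCA, 5 in dPoClrC against dCA and 6 in dPoflbC against dPoClrC (10, 5 and 7 for unadjusted p). On RPKM, where no scaling is applied, limma called 2 in the first comparison and 0 in the others. Their log2 fold changes ranged from -0.63 to 0.92 in dPoflbC against dCA, from -0.60 to 0.84 in dPoClrC against dCA and from -0.70 to 0.31 in dPoflbC against dPoClrC. The SOK2-like PDE_04095, of a family that in yeast acts in growth by filaments, was at 148 ± 9.45, 153 ± 14.6 and 153 ± 22.7 RPKM in dPoflbC, dPoClrC and dCA. In the same order the AP-1-like PDE_03264, of a family that in yeast responds to oxidants, was at 112 ± 6.23, 84.6 ± 4.92 and 90.1 ± 11.1 RPKM.

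The STE12-type PDE_09318, of a family that in yeast acts in mating and filament growth, was at 110 ± 3.92, 73.8 ± 10.9 and 90.0 ± 8.49 RPKM. PDE_04903, of the ATF/CREB leucine zipper family, was at 101 ± 5.64, 89.3 ± 10.3 and 75.9 ± 0.440 RPKM. The GAL4-type PDE_01826, named for the yeast activator of galactose use, was at 77.2 ± 4.36, 103 ± 6.37 and 78.9 ± 12.3 RPKM.

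Of the GATA-binding proteins, a family known in fungi for control of nitrogen use, PDE_03334 was at 26.9 ± 0.830, 33.2 ± 3.77 and 23.9 ± 1.56 RPKM and PDE_08667 at 46.7 ± 4.15, 32.2 ± 1.797 and 22.5 ± 5.96 RPKM. The SKN7-type response regulator PDE_08232 was at 19.2 ± 0.571, 24.7 ± 5.15 and 17.5 ± 2.92 RPKM, and the AMDR-type PDE_02833 at 26.4 ± 1.36, 19.3 ± 1.34 and 16.8 ± 1.85 RPKM. The remaining 3, RSC3/30-type PDE_01792, NF-X1-type PDE_00588 and enhancer factor PDE_02932, had strain means between 2.43 and 17.5 RPKM.

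**Figure D5:**
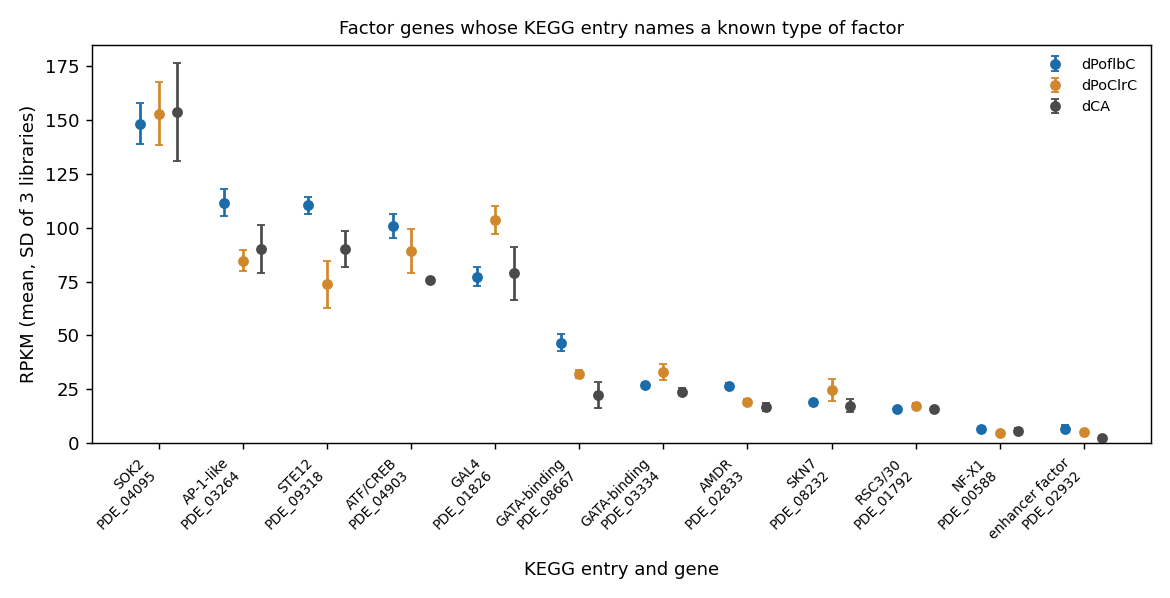
RPKM (y axis, mean and SD of 3 libraries) of the 12 factor genes whose KEGG entry names a type of factor (x axis), in dPoflbC (blue), dPoClrC (orange) and dCA (grey). Levels run from 153 RPKM for the SOK2-like gene to 2.43 RPKM for the enhancer factor in dCA, and edgeR called none between strains.

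Genes of the transcription machinery that factors act through were counted in the same way. Of 30 RNA polymerase subunit genes, 8 were higher and 0 lower in dPoflbC than in dCA, where 11.4% of all genes rose. Against dPoClrC 3 rose, and in dPoClrC against dCA none was called (13 at an unadjusted p under 0.05, 0 called by DESeq2, 2 by limma). Of the 8, 5 are subunits of RNA polymerase I, which makes ribosomal RNA, 2 are shared by polymerases I and III, and 1 is the mitochondrial polymerase. RPA1 (PDE_00243), the largest subunit of polymerase I, was at 18.4 RPKM on average in dPoflbC, 6.99 in dPoClrC and 4.05 in dCA.

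None of 24 general initiation factors was called by edgeR or DESeq2 in any comparison. Unadjusted p was under 0.05 for 9, 9 and 13, limma called 4, 0 and 0, and medians were 0.07, -0.18 and 0.31 in the order above. Since edgeR called 27.1%, 13.0% and 22.6% of all genes, nothing is read from 0 among 24. Among 13 Mediator subunits, which link factors to RNA polymerase II, edgeR called 1, MED12 (PDE_01605), which fell by 1.52 on the log2 scale in dPoClrC against dCA, where 7.35% of all genes fell. On RPKM limma called 1 in each comparison. Of 32 chromatin regulators tested, edgeR called 1, the EAF6-type PDE_01960, which rose by 1.03 in dPoflbC against dPoClrC, where 9.05% of all genes rose. For these limma made 7, 0 and 2 calls in the order above. By limma 23.9% of all genes were higher and 7.90% lower in dPoflbC against dCA. The shares were 8.75% and 4.76% in dPoClrC against dCA, and 13.2% and 9.40% in dPoflbC against dPoClrC. With no scaling 15 polymerase subunits, 4 initiation factors, 1 Mediator subunit and 9 chromatin regulators rose in dPoflbC against dCA, and none fell. Under that setting 26.2% of all genes rose and 8.72% fell. The counts of these lists, other than that of the polymerase subunits in dPoflbC against dCA, are therefore not read as a rise.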

How the data were processed

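RNA was extracted with RNAiso and made into Illumina libraries, per the labels' protocols, and CASAVA 1.8 was used, per the submitters' processing notes. The aligner, counting tool, strand setting and genome build were not given in the sources used here. Whole read counts, called unique reads per the file headers, and RPKM per gene were deposited by the authors. The reference table matched 0 locus numbers, so no position or sequence is given.

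Strains came from the sample titles. Genes were kept by filterByExpr (8681 of 9786), and counts were scaled by TMM and tested with edgeR 4.0.16 (quasi-likelihood, two-sided, all 9 libraries in one fit, 1 mean per strain, no replicate block; R 4.3.3), with p-values adjusted by Benjamini-Hochberg over all genes. The procedure was tested on simulated counts with a common spread and with as many genes raised as lowered. That simulation held no outlying library such as dCA replicate 2. Alternatives used DESeq2 1.42.0 and limma 3.58.1 on log2(RPKM + pseudocount of 1, 0.5 or 5).

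The factor genes and lists were chosen with earlier results of these data known. Named genes are, per comparison, up to 6 highest and 6 lowest called genes with 5 RPKM or more in a strain, genes whose KEGG entry names a factor, and the 6 most abundant. Of these 34, 11 are given by library. Deviations of log2 levels from their strain means correlated at -0.18 to 0.12 between same-numbered replicates of different strains. Between those of different number they correlated at -0.13 to 0.17, and the numbers were not taken as pairs. Replicates of a strain differed by more than counting noise.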

Additional observations from a re-analysis of the deposited data

How the results depend on the processing

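Of 97 calls of single factor genes, 45 were kept under each of the 20 alternatives that gave an adjusted p, 0 reversed, and 52 were lost at least once; by setting, 29 were lost with no scaling, 19 without dCA replicate 2, 32 to 48 with limma on RPKM without further scaling, 19 with limma after quantile normalization and 1 to 6 in each other alternative. DESeq2 gave no adjusted p for PDE_00454 in the comparisons with dCA. Below, numbers are factor genes higher and lower in dPoflbC against dCA, then in dPoClrC against dCA, then in dPoflbC against dPoClrC; "apart" counts those in which dPoflbC, dPoClrC or dCA differed from both others. The main values were 7 and 32, 2 and 27, 13 and 16, with 18, 8 and 17 apart. Numbers apart were not taken over all genes under the alternatives, so their changes are not read as particular to factor genes.

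With no scaling they were 21 and 17, 7 and 17, 19 and 12, with 11 apart in dCA and medians of 0.27, 0.078 and 0.19. The shares of all genes higher and lower were then 26.2% and 8.72%, 10.2% and 5.23%, and 14.8% and 10.1%. Limma with a pseudocount of 1 gave 18 and 14, 4 and 13, 7 apart in dCA and medians of 0.28, 0.076 and 0.18. For all genes the shares were 23.9% and 7.90%, and 8.75% and 4.76%. A pseudocount of 0.5 gave 19 and 15, 7 and 16, 11 apart in dCA and medians of 0.28, 0.081 and 0.19. For all genes the shares were 25.5% and 8.26%, and 9.85% and 4.95%. A pseudocount of 5 gave 8 and 12, 1 and 10, and 14 and 8, with 11, 5 and 4 apart. The medians were 0.18, 0.059 and 0.16. For all genes the shares were 16.6% and 6.70%, 6.002% and 3.81%, and 9.02% and 7.66%. With no filter limma gave 18 and 14, 4 and 12, 7 apart in dCA and medians of 0.28, 0.072 and 0.18. For all genes the shares were 22.1% and 7.22%, and 7.93% and 4.33%. After quantile normalization the medians were -0.21 and -0.016 in the first and the last comparison, with 1 higher in the second (5.29% of all genes) and 11 apart in dCA. With no minimum fold change the counts were 28 and 95, 11 and 74, 40 and 61, with 76, 27 and 58 apart. Among all genes 27.1% and 33.8%, 17.9% and 19.9%, and 27.6% and 29.5% were then higher and lower. The number higher in dPoClrC against dCA was 1 with only the 6 libraries compared, where 5.56% of all genes were higher. With limma at a pseudocount of 1, on RPKM without scaling beyond depth, the medians of all genes were 0.49, 0.29 and 0.27. After quantile normalization the medians of all genes were 0.07, 0.04 and 0.10. The cause of the shifts between settings was not tested.

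The replicate numbers were not taken as pairs. Deviations from strain means correlated at -0.18 to 0.12 between same-numbered libraries and at -0.13 to 0.17 between differently numbered libraries of different strains. With the replicate block the counts were 6 and 31, 1 and 27, and 14 and 17. The shares of all genes were then 11.4% and 15.4%, 5.54% and 7.08%, and 9.07% and 13.6%. Leaving out 1 library at a time gave 5 to 7 higher and 26 to 34 lower in the first comparison, 1 to 4 and 17 to 28 in the second and 12 to 15 and 15 to 17 in the last, with 18 to 19, 7 to 9 and 9 to 20 apart. For all genes the shares were 11.0% to 12.2% and 14.5% to 16.4% in the first comparison. They were 4.75% to 6.99% and 5.79% to 8.28% in the second, and 8.47% to 9.64% and 13.1% to 14.1% in the last. Without dCA replicate 2 dCA stood apart in 9. Calls in genes of few reads, such as PDE_08088, are limited by depth.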
